A study of Saccharomyces cerevisiae with 2 samples.

Results

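The GAL7, GAL10 and GAL1 genes of the budding yeast Saccharomyces cerevisiae stand side by side on chromosome 2. They were examined in maps of mononucleosomal DNA as a locus outside the phosphate response. The cluster was chosen by its genes and position, not by any measured value. It was taken as chr2:272001-284000 on the sacCer1 release used for the tags, which is 12 of the 12041 nuclear bins of 1 kb. It held 916 of 1012969 tags in one library and 2963 of 2603132 in the other. Coding spans were known to about 50 bp on this release. They were GAL7 at chr2:274427-275527 and GAL10 at chr2:276253-278352, both on the minus strand, and GAL1 at chr2:279021-280607 on the plus strand. The GAL10-GAL1 promoter, shared by both genes, was chr2:278353-279020, and the stretch upstream of GAL7, which ends at the 3′ end of GAL10, was chr2:275528-276252. In the R64 gene table the neighbours are KAP104 on the GAL7 side and FUR4 and POA1 on the GAL1 side.

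Both libraries came from cells carrying PHO4-MYC::TRP1 and CBF1-3HA::LEU2, so the tagged transcription factors Pho4 and Cbf1 were shared by the conditions. Log-phase cells from rich YPD medium were starved of phosphate for 3 hours, and then spent 80 minutes either still at 0 mM phosphate, called starvation, or at 10 mM, called high phosphate. The carbon source of the phosphate-free medium is not given in the sources used here, and neither library was labelled as galactose-grown. Micrococcal nuclease, which cuts the linker DNA between nucleosomes, left mononucleosomal fragments whose ends were sequenced. Each condition had 1 library, so there is no replicate check, no p-value is given, and what differs by library and what differs by condition cannot be told apart.

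The 3 genes encode enzymes of the Leloir pathway, which turns galactose into a form that enters glycolysis. Gal1 is galactokinase, which phosphorylates galactose. Gal7 is the uridylyltransferase that converts the phosphorylated sugar into UDP-galactose, and Gal10 is the epimerase that interconverts UDP-galactose and UDP-glucose. In galactose the activator Gal4, bound to its sites in the shared promoter and upstream of GAL7, switches the genes on strongly. Without galactose Gal80 masks Gal4, and in glucose the repressor Mig1 also acts, which makes the cluster one of the best studied gene switches in yeast.

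Levels are given as relative tag density, the tags per bp divided by the nuclear mean of the same library, so that 1 is the genome average. The nuclear mean was 83.2 tags per kb in starvation and 215.9 in high phosphate. Intervals are 95% exact intervals and cover counting error only, since each condition had 1 library. They treat tags as independent, although sequenced tags are not independent molecules. Neither file lists a position and strand more than 1 time (0 repeats), so the count at a strong position is capped, and the cap bears harder on the deeper high phosphate library. At the cluster, tags filled 3.84% of the position-strand combinations in starvation and 12.4% in high phosphate. Fragments were longer in starvation, with an offset between the strands of 155 bp against 142 bp over the nuclear genome.

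The cluster as a whole stood at 0.917 of the nuclear mean in starvation (0.859 to 0.979) and at 1.14 in high phosphate (1.10 to 1.19). As a log2 ratio, starvation over high phosphate, this was −0.32 (−0.43 to −0.21). This lay in the lower part of the nuclear genome without being extreme: the median of 992 windows of 12 kb was −0.045, their interquartile range ran from −0.25 to 0.18, and 19.0% of them were lower. Scaled to the tags of chromosome 2 alone, the ratio was −0.28.

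GAL1 was packed with nucleosomal DNA to nearly the same level in both libraries. Its coding span held 175 tags in starvation, a relative density of 1.33 (1.14 to 1.54). In high phosphate it held 435 tags, a relative density of 1.27 (1.15 to 1.40). The log2 ratio was 0.062, with an interval from −0.20 to 0.32 that allows a difference of either sign. Both densities stood above the median nuclear window of the same length, which was 0.901 in starvation and 1.05 in high phosphate. The median log2 ratio of those windows was −0.18, and 64.4% of them were lower than GAL1.

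GAL10 was slightly lower in starvation. It held 172 tags there, a relative density of 0.984 (0.843 to 1.14). It held 534 tags in high phosphate, a relative density of 1.18 (1.08 to 1.28). The log2 ratio of −0.26 had an interval (−0.52 to −0.0082) that ended just below 0, and with scaling to the median 10 kb bin it became −0.18 (−0.44 to 0.068), which includes 0. The ratio of −0.26 was ordinary for the nuclear genome. Windows of the length of GAL10 had a median of −0.16 and an interquartile range of −0.53 to 0.26, and 43.2% were lower.

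GAL7 differed most of the 3 coding spans. It held 73 tags in starvation, a relative density of 0.797 (0.625 to 1.002), above 40.75% of the nuclear windows of its length. It held 327 tags in high phosphate, a relative density of 1.38 (1.23 to 1.53), above 92.8% of the nuclear windows of its length. The log2 ratio was −0.79 (−1.17 to −0.42), below the interquartile range of those windows (−0.66 to 0.32), 17.6% of which were lower still. Within starvation GAL1 was 1.66 times as dense as GAL7 (1.26 to 2.22), whereas in high phosphate the interval of the ratio included 1 (0.923, 0.798 to 1.07).

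Among the whole features of the cluster (the coding spans, the stretches between the genes and the sequence on either side), the shared GAL10-GAL1 promoter was the most densely covered in both libraries. It held 88 tags in starvation, a relative density of 1.58 (1.27 to 1.95), with 82.3% of nuclear windows of its length lower. It held 235 tags in high phosphate, a relative density of 1.63 (1.43 to 1.85), and 98.3% of nuclear windows of the same length were lower. The libraries differed by a log2 ratio of −0.041 (−0.41 to 0.32). The median log2 ratio of those windows was −0.29, and 60.8% of them were lower than the promoter. The density of the promoter was 1.502 times that of the 3 coding spans together in starvation (1.18 to 1.89) and 1.30 times in high phosphate (1.13 to 1.495). Against GAL10 alone it was 1.61 times as dense in starvation (1.23 to 2.09) and 1.38 times in high phosphate (1.18 to 1.62). Against GAL1 alone the ratio was 1.195 in starvation, with an interval that included 1 (0.914 to 1.55), and 1.28 in high phosphate (1.09 to 1.51).

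The stretch upstream of GAL7 was the opposite case. It held 21 tags in starvation, a relative density of 0.348 (0.216 to 0.532), and 3.88% of nuclear windows of that length were lower. It held 116 tags in high phosphate, a relative density of 0.741 (0.612 to 0.889), with 10.0% of windows lower. The log2 ratio was −1.09 (−1.84 to −0.41), and 9.15% of windows were lower. Relative to the 3 coding spans it stood at 0.330 in starvation (0.202 to 0.511) and 0.591 in high phosphate (0.485 to 0.715). The shared promoter was 4.55 times as dense as this stretch in starvation (2.80 to 7.71) and 2.20 times in high phosphate (1.75 to 2.77), so the 2 promoter regions of the cluster stood on opposite sides of its average under both conditions. On the GAL7 side of the genes, up to the edge of the 12 kb, density was 0.590 in starvation against 0.937, a log2 ratio of −0.67 (−0.97 to −0.38). On the GAL1 side it was 0.949 and 1.13, a log2 ratio of −0.25 (−0.45 to −0.046).

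**Figure D1:**
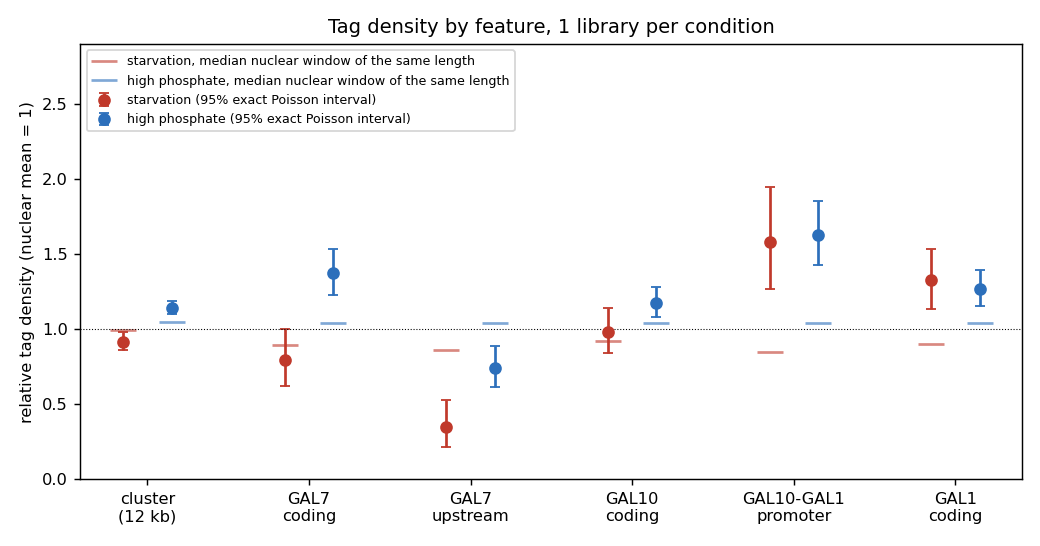
Relative tag density (nuclear mean 1, vertical axis) of the 12 kb cluster and its features, with 1 point per library and 95% exact Poisson intervals; short bars give the median nuclear window of the same length. Of the features plotted, the GAL10-GAL1 promoter was highest in both libraries, at 1.58 (starvation) and 1.63 (high phosphate). The stretch upstream of GAL7 was lowest, at 0.348 and 0.741.

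Tags were spread unevenly inside the genes as well. When each coding span was cut into 3 equal parts, single parts reached the density of the shared promoter. In starvation the middle parts of GAL1 and GAL10 stood at 1.66 and 1.597, and in high phosphate the 5′ part of GAL7 stood at 1.79, each with an interval that overlapped that of the promoter. The middle part of GAL10 was higher in starvation, with 93 tags against 154 and a log2 ratio of 0.65 (0.26 to 1.03). The parts on either side went the other way, at −0.74 (−1.22 to −0.28) in the 5′ part and −1.096 (−1.70 to −0.54) in the 3′ part. The small difference of GAL10 as a whole therefore combined parts that differed in sign. In GAL7 the middle and 3′ parts were lower in starvation, at −1.08 (−1.95 to −0.30) and −1.14 (−1.97 to −0.38), while the interval of the 5′ part included 0, at −0.45 (−0.996 to 0.063). In GAL1 the intervals of all 3 parts included 0, with log2 ratios of 0.32, 0.090 and −0.41 from the 5′ to the 3′ part.

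Along the cluster, 1 of the 12 bins of 1 kb was at least 2-fold lower in starvation and 0 were at least 2-fold higher, where 9.40% and 6.44% of 11560 nuclear bins were. With 12 bins, these shares of the nuclear genome correspond to about 1 bin in each direction. The lower bin was chr2:276001-277000, over the 3′ end of GAL10, which held 33 tags in starvation against 220, at a log2 ratio of −1.36 (−1.94 to −0.83). The median of the 12 bins was −0.50, against −0.23 over all nuclear bins, and 9 of 12 were below 0, against 60.9% of all bins. The counting interval lay below 0 in 7 of the 12 bins and above 0 in 0, where it did so in 40.2% and 23.8% of nuclear bins. In bins of 500 bp, 2 of 24 were at least 2-fold lower and 0 at least 2-fold higher, against 16.7% and 9.24% of nuclear bins, so both shares were under those of the genome. In bins of 200 bp, 15 of the 58 that could be used were at least 2-fold lower and 4 at least 2-fold higher, where 26.9% and 13.2% of nuclear bins were, so at this scale the cluster was near the background for lower bins and not above it for higher ones. The 4 higher bins lay at chr2:275601-275800 upstream of GAL7, at chr2:277001-277200 and chr2:277201-277400 in GAL10, and at chr2:279401-279600 in GAL1.

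**Figure D2:**
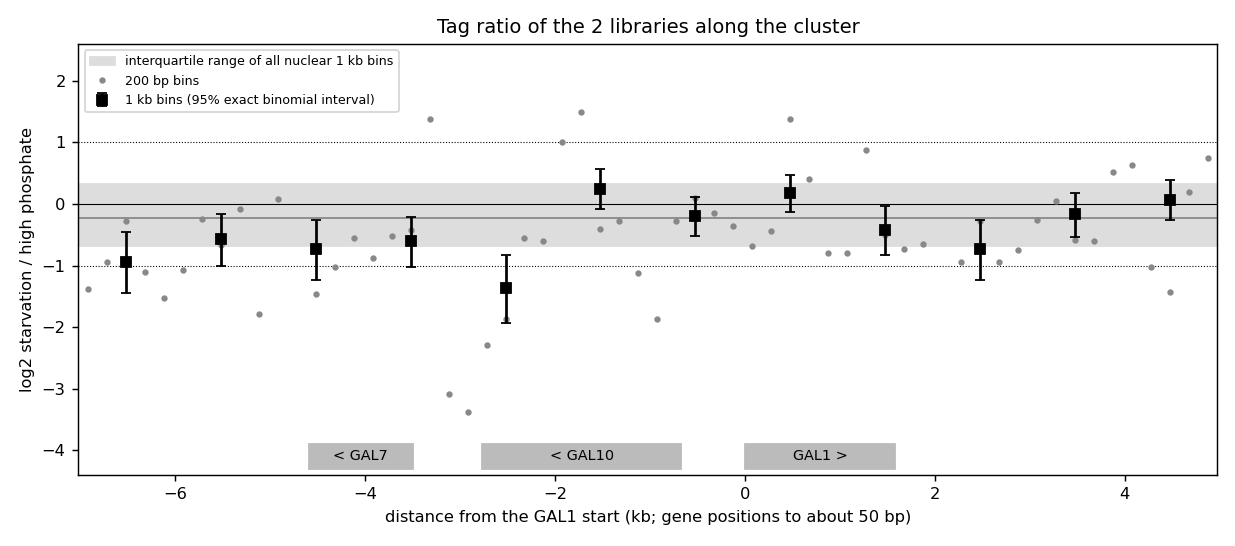
Log2 ratio of starvation over high phosphate (vertical axis) against distance from the GAL1 start in kb, for 12 bins of 1 kb (squares, 95% exact binomial intervals) and 58 bins of 200 bp (dots). The grey band is the interquartile range of all nuclear 1 kb bins (−0.68 to 0.33), dotted lines mark 2-fold, and 1 square lies beyond them.

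Positions of nuclease-protected DNA were called at the cluster in both libraries. No antibody was used, so whether each of them marks a nucleosome was not tested. Dyads, the presumed nucleosome midpoints, were taken as local maxima of the smoothed tag density above the nuclear mean. There were 47 in starvation and 61 in high phosphate, which is 3.92 and 5.08 per kb, against 3.48 and 4.47 per kb over the nuclear genome. The median distance between neighbouring dyads was 181.5 bp in starvation against 172.5 bp in high phosphate. Over the nuclear genome it was 202 bp and 179 bp, so the wider spacing in starvation was not particular to the cluster. Most dyads were seen in both libraries: 40 of the 47 starvation dyads (85.1%, 71.7% to 93.8%) had a high phosphate dyad within 20 bp, where 74.9% of all nuclear starvation dyads did. In the other direction 40 of 61 (65.6%, 52.3% to 77.3%) matched, against 58.1% over all nuclear high phosphate dyads. Both intervals include the share over all dyads.

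Matched dyads lay much closer together than the 20 bp that defined a match. The median displacement over the 40 pairs was 4 bp, 24 pairs (60%) lay within 5 bp, and the largest displacement was 18 bp. Over 31293 nuclear pairs the median was 6 bp and 48.7% lay within 5 bp. Within a library, dyads read from plus-strand tags and from minus-strand tags differed by a median of 18 bp (starvation) or 13 bp (high phosphate). These differences have no upper limit by construction, and 26 of 47 and 40 of 61 were within 20 bp. Of the dyads inside coding spans, 9 of 9 starvation dyads matched in GAL10, 5 of 6 in GAL1 and 2 of 4 in GAL7, with 3 of 4 in the shared promoter. Of the high phosphate dyads, 9 of 12 matched in GAL10, 5 of 8 in GAL1 and 3 of 6 in GAL7, with 3 of 4 in the shared promoter.

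**Figure D3:**
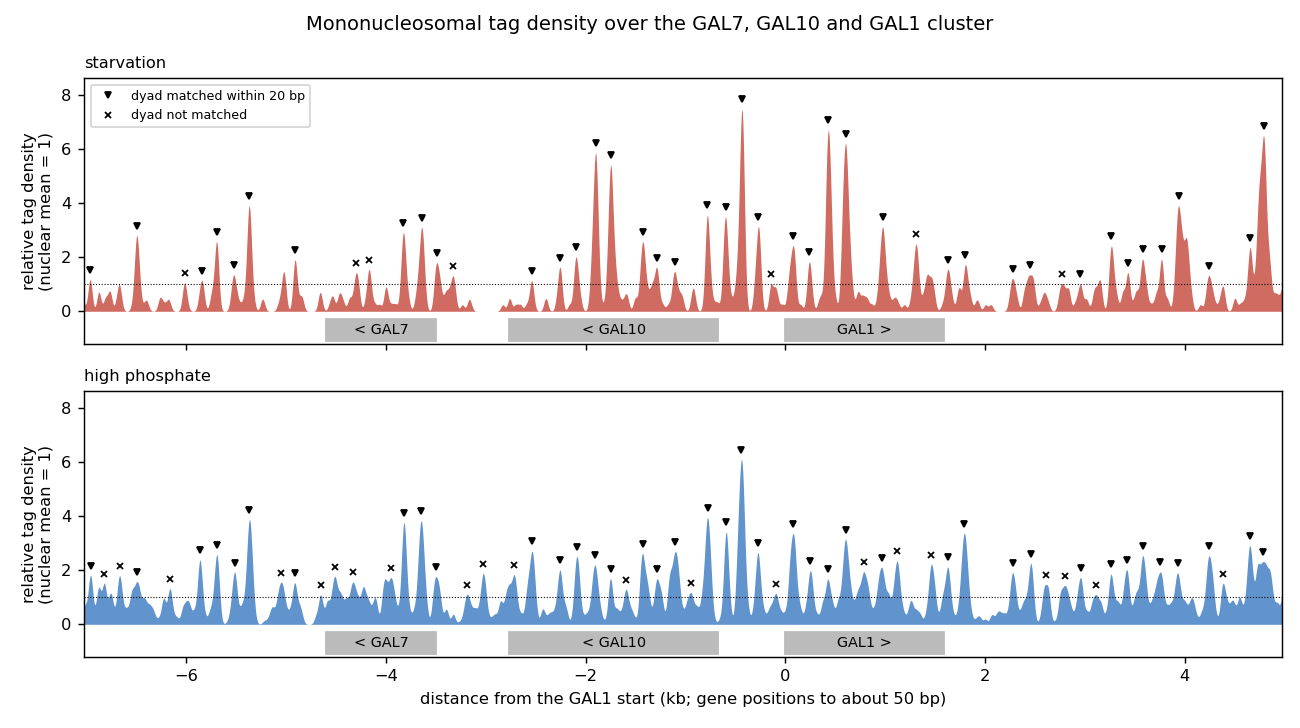
Relative tag density (nuclear mean 1, Gaussian SD 20 bp) against distance from the GAL1 start in kb, starvation above and high phosphate below; triangles are dyads with a partner within 20 bp in the other library, crosses dyads without one, and grey bars the coding spans. Of the 47 starvation dyads 40 have a partner in high phosphate, the highest dyad of both libraries is in the GAL10-GAL1 promoter, and the starvation track falls to 0 between GAL7 and GAL10.

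Of the dyads in the shared promoter, a row of 3 lay at nearly the same places under both conditions. In starvation the dyads lay at −598, −434, −268 and −138 bp from the GAL1 start (negative is upstream of GAL1). In high phosphate they lay at −592, −438, −273 and −95 bp. The first 3 matched within 6 bp. The last, nearest to GAL1, lay 43 bp apart and was weak, at 1.02 and 1.15 times the nuclear mean. Around the 3 matched dyads, within 73 bp on each side, starvation held 19, 42 and 17 tags and high phosphate 49, 111 and 44. The log2 ratios were 0.0089, −0.026 and 0.0037, each with an interval that included 0, the narrowest from −0.57 to 0.50.

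The dyad at −434 bp (starvation) and −438 bp (high phosphate), which is −235 and −231 bp from the GAL10 start, was the highest of the cluster in both libraries. It reached 7.47 times the nuclear mean in starvation and 6.10 times in high phosphate. Among all nuclear dyads, 1802 of 41807 (4.31%) were at least as high in starvation and 20 of 53837 (0.037%) in high phosphate. It is the part of the cluster where collapsing of repeats acts most: within 20 bp of it, tags filled 40.2% of position-strand combinations in starvation and 76.8% in high phosphate. After a correction for filled positions its log2 ratio moved from −0.026 to −0.48, still inside the counting interval. Of the tags within 73 bp, 83.3% lay within 20 bp in starvation (68.6% to 93.0%) and 58.6% in high phosphate (48.8% to 67.8%). The median over all nuclear dyads was likewise higher in starvation, at 62.5% against 50%. The part of the capped counts and of fragment length in this was not tested.

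The lowest 150 bp of the shared promoter lay between this row and GAL1, centred −182 bp from the GAL1 start. It held 5 tags in starvation, a relative density of 0.401 (0.130 to 0.935), and 20 in high phosphate, 0.618 (0.377 to 0.954). Just inside GAL1 a dyad stood at 79 bp from its start in both libraries, with 16 and 65 tags. Inside GAL10 the first dyad lay at 111 bp from its start in starvation, 109 bp in high phosphate, with 18 and 72 tags. In GAL7 a dyad lay almost at the start (−5 and 3 bp) and the next at 146 and 152 bp, with 19 and 68 tags around the midpoint of the latter pair. Each of the 3 genes thus carried a dyad near its start that lay within 6 bp in both libraries. The log2 ratios of these dyads (−0.65 in GAL1, −0.62 in GAL10 and −0.46 in GAL7 at 149 bp) had intervals that included 0. Distances to gene starts carry the uncertainty of about 50 bp in the coding spans, while distances between libraries do not.

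The dyads of the libraries differed in the stretch upstream of GAL7. Starvation had dyads at −5 and −166 bp from the GAL7 start (negative is upstream) and then no further dyad for 789 bp, the widest spacing in the cluster. High phosphate had dyads at −311 and −471 bp, where starvation had none. The 150 bp with most tags in this stretch, centred −421 bp from the GAL7 start, held 37 tags in high phosphate, a relative density of 1.14, and 0 in starvation. For the count of 0 the exact Poisson interval reached up to a relative density of 0.2955. The exact interval of the log2 ratio, which also includes the counting error of the 37 tags, ended at −1.88. The 150 bp with fewest tags, centred at −183 bp, ran the other way, with 8 tags in starvation (relative density 0.641, 0.277 to 1.26) and 6 in high phosphate (0.185, 0.068 to 0.403). These windows were picked by their values and are descriptions.

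In the positions as deposited, no starvation tag of either strand fell between chr2:275940 and chr2:276265, a run of 326 bp. High phosphate had 56 tags in that run, and an equal share would have given starvation 21.6. The starvation library had 403 nuclear stretches without tags that were at least as long. How many of those held high phosphate tags was not counted, so the count does not tell how common a run like this one was. The longest empty run of the cluster in high phosphate was 82 bp.

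**Figure D4:**
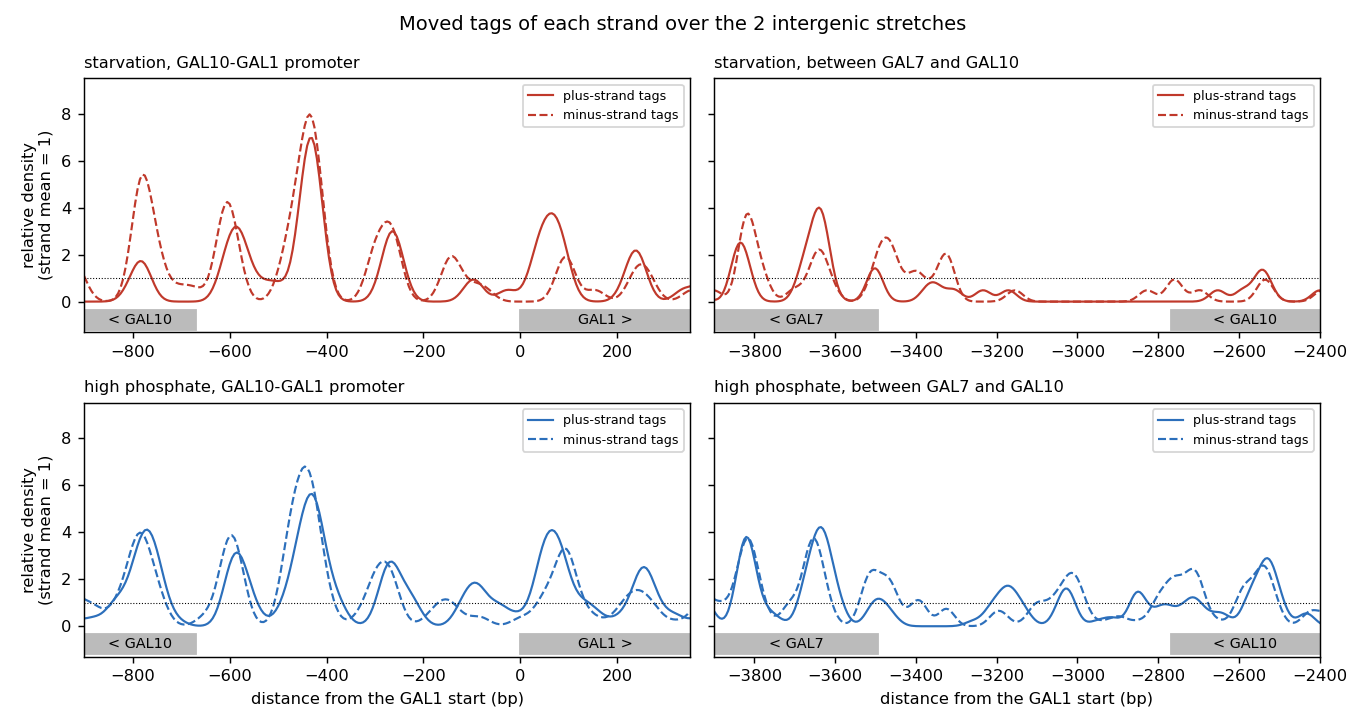
Density of moved plus-strand tags (solid) and minus-strand tags (dashed), each with its nuclear mean at 1, against distance from the GAL1 start in bp, over the GAL10-GAL1 promoter (left) and between GAL7 and GAL10 (right); starvation above, high phosphate below, grey bars coding spans. Both strands show the tall promoter dyad near −436 bp in both libraries, and high phosphate shows tags near −3023 bp where starvation has none.

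For most matched dyads the counting interval of the tag ratio included 0. Many rested on few starvation tags, so this does not show equal levels. The median log2 ratio of the 40 was −0.40, and most of them were lower in starvation. No nuclear median of this ratio is given for comparison. Of the 40, 6 had more tags in starvation with an interval above 0, 4 had fewer with an interval below 0, and 30 had an interval that included 0. Over the 31293 nuclear pairs, 22.7% had an interval above 0 and 9.45% one below 0. The counts at the cluster are small, and whether its shares differ from these was not tested. Neighbouring dyads in the middle of GAL10 were among the 6: at −1903 bp from the GAL1 start starvation held 35 tags and high phosphate 41, a log2 ratio of 1.15 (0.45 to 1.83). At −1749 bp the counts were 34 and 27 and the log2 ratio 1.71 (0.94 to 2.49), the largest of the 40. Neighbours in the 5′ part and middle of GAL1 were another pair. At 429 bp from the start the counts were 40 and 36 and the log2 ratio 1.53 (0.84 to 2.22), and at 604 bp they were 42 and 65 with 0.75 (0.15 to 1.33). The remaining 2 lay beyond GAL1, at 3934 and 4789 bp. The dyads with fewer tags in starvation included 2 in GAL10, at −2537 bp with 6 and 52 tags (−1.74, −3.25 to −0.52) and at −1104 bp with 12 and 67 tags (−1.11, −2.13 to −0.21). GAL10 thus held dyads of both kinds, all of them displaced by at most 8 bp.

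**Figure D5:**
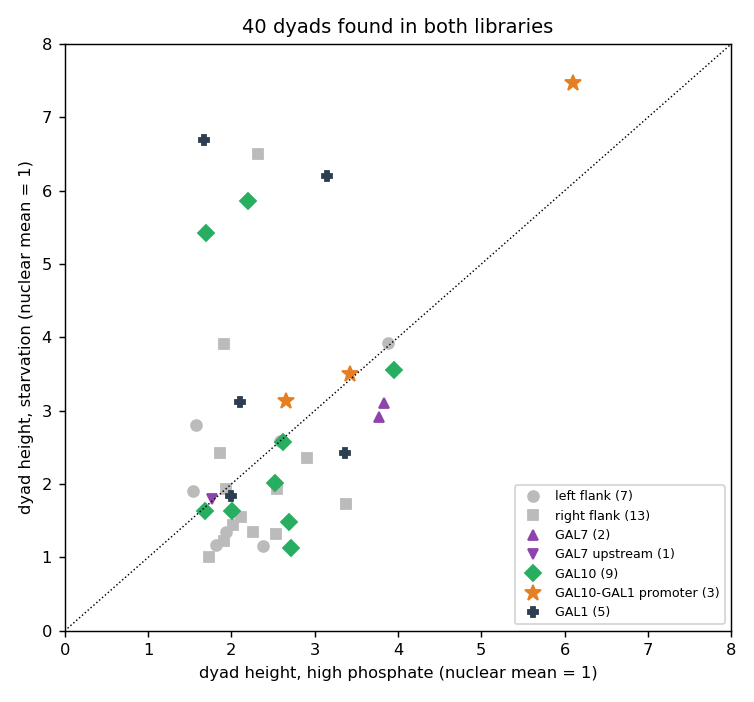
Height of the 40 dyads found in both libraries (nuclear mean 1), high phosphate on the horizontal and starvation on the vertical axis, 1 point per dyad and symbols by feature; the dotted line marks equal heights. The 3 promoter dyads lie near or above the line. Some dyads of GAL10 (5.86 and 5.42 in starvation, 2.20 and 1.70 in high phosphate) and of GAL1 lie far above it. Others of the same genes lie below it, such as 1.13 in starvation and 2.71 in high phosphate in GAL10, and 2.43 and 3.37 in GAL1.

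The tag profiles of the libraries resembled each other at the cluster. Over 240 windows of 50 bp Pearson's r was 0.68, given as a description because the windows share sequence and libraries. The median over 992 nuclear windows of 12 kb was 0.56, with an interquartile range of 0.51 to 0.61. Plus-strand and minus-strand tags of the same library correlated at 0.67 in starvation and 0.53 in high phosphate. Tags at the cluster were more often on the minus strand, with 42.7% on the plus strand in starvation (39.5% to 46.0%) and 45.1% in high phosphate (43.3% to 46.9%). The median 12 kb window had 50.2% and 50.1%, with interquartile ranges of 47.1% to 53.2% and 47.1% to 53.3%. The part of this strand imbalance in the densities above was not tested.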

How the data were processed

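Per the labels' protocols, DNA was digested with micrococcal nuclease, gel-purified as mononucleosomal fragments and sequenced without an antibody on an Illumina Genome Analyzer, and tags were placed on sacCer1. Neither aligner nor read length is given in the sources used here. The sample description also mentions sonication, and the labels name the medium both PNB and YNB. The part of sonication in the tag ends was not tested. The deposited files list the chromosome, position and strand of each uniquely placed tag, with no header and no level. The sample titles give the groups.

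Tags were moved 73 bp along their strand and counted with Python 3.11.15, numpy 2.4.6 and scipy 1.17.1. Coding spans were known to about 50 bp. Bins needed 20 tags over both libraries. Ratios carry exact conditional binomial (Clopper-Pearson) intervals and densities exact Poisson intervals, at 95%. Dyads were maxima of the density (Gaussian SD 20 bp), at least 120 bp apart. The correction for filled positions used 10 bp windows. Counting and dyad calling were tested on simulated data. All 3 genes and 12 bins are named. The genes, spans and lists were chosen with earlier results of these data known. Promoter sequences, motifs and other galactose genes (GAL2, GAL3, GAL4, GAL80 and the like) were not analysed here.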

Additional observations from a re-analysis of the deposited data

How the results depend on the processing

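No paired analysis was possible because the conditions had 1 library each, and none could be left out. Of 100 values for 16 results under the alternatives, 96 stayed within the counting interval or, for the count of bins and the profile correlation, within 1.5 times or the spread of 12 kb windows. The count of bins past 2-fold was 1 of 12 at 1 kb. It became 2 of 24 with 500 bp bins, 19 of 58 with 200 bp bins and 2 after thinning high phosphate to the starvation total. The correction for filled positions raised the shared promoter over coding in high phosphate from 1.30 to 1.64. In starvation it went from 1.502 to 1.575, so which library had the larger ratio changed with the correction. Over 8 alternatives the log2 ratio ranged from −0.88 to −0.58 for GAL7, from −1.37 to −0.79 upstream of GAL7 and from 0.017 to 0.14 for GAL1, and the shared promoter changed sign (−0.34 to 0.050) within its counting interval of −0.41 to 0.32. Scaling to the median 10 kb bin, which added 0.076 to every log2 ratio, brought 0 into the intervals of GAL10, of the sequence beyond GAL1, of 1 of the 7 lower bins and of 2 of the 4 lower dyads. Scaling to chromosome 2 and both dyad alternatives were added after the data had been seen. After thinning, the least covered window upstream of GAL7 held no high phosphate tag, so no ratio was formed. In starvation a matched dyad rested on 6 to 55 tags, which limits statements on single nucleosomes.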
